A study of Rattus norvegicus with 14 samples.

Results

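The expression level of liver genes was described in the 5 arrays of rats fed a standard diet, out of 14 arrays in the series. These arrays were chosen by their label alone, the standard diet arrays numbered 6 to 10, with no measured value used. The other arrays came from rats on a Mg++ supplemented diet (5 arrays) or a Mg++ deficient diet (4 arrays) and are used here only to set the scale and to repeat measures of spread. In every group the RNA was total RNA from the left lateral lobe of the liver at necropsy, and about 5 micrograms of it made each target for an Affymetrix rat oligonucleotide array. The labels give no strain, sex, age, hour of necropsy, feeding state or diet composition, and do not say whether each array is a separate animal, so every SD is a spread between samples that may be partly technical. No diet was compared with another, and no test was run, since the 5 arrays form 1 group.

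The liver parenchyma consists mainly of hepatocytes, which secrete most plasma proteins, make and break down glucose, fats, cholesterol and amino acids, and detoxify foreign compounds through cytochromes P450 and conjugating enzymes. Many of these tasks follow feeding, hormones and the time of day, and several rat liver enzymes differ between the sexes because they follow the pulse pattern of growth hormone. Endothelial cells, Kupffer cells, which are resident macrophages, stellate cells and bile duct cells make up the rest of the tissue, and in whole tissue fewer cells of a type cannot be told apart from less RNA per cell.

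Each value is a probe set signal, the brightness of a set of short oligonucleotides on the array, in arbitrary units, after quantile normalisation over the 14 arrays. Of 4736 genes on the array, 3073 (64.9%) had a probe set whose mean over the 14 arrays lay above 14.3 units, and these genes are described. Spearman correlations of the signals were 0.941 to 0.956 over the 10 pairs of the 5 arrays. Differences in level between genes dominate such a correlation, so it does not show that the arrays were of like quality. The arrays differed in the control probe sets at both ends of 2 transcripts, where a high 3'/5' ratio marks RNA or target that has lost its 5' part. The ratio for Gapdh was 2.88, 2.56, 3.02, 2.06 and 6.29 on arrays 6, 7, 8, 9 and 10, and for beta-actin it was 2.17, 2.58, 3.27, 1.71 and 6.20 in the same order. Array 10 was thus highest and array 9 lowest by both controls. Most SDs of named genes that turn on either array are given with and without it, but shares of signal held by functional lists are not.

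The brightest genes were those of secreted plasma proteins. Of the 20 genes with the highest mean signal, 15 encode proteins that hepatocytes release into the blood, and of the 100 brightest 39 do. The lists of plasma proteins held 75 measured genes, 2.44% of all, so 39 of 75 were among the 100 brightest against 3.25% of all genes. Signals of different probe sets are not calibrated against each other. Among 879 genes with several probe sets above the filter, the brightest set exceeded the dimmest by a median of 2.66-fold, by 5.41-fold or more in 25% of the genes and by 12.6-fold or more in 10%. The order below is therefore an order of probe set signals and not of RNA molecules.

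Alb, which encodes albumin, the main carrier and osmotic protein of plasma, was brightest at 9128 ± 291 units (SD, n = 5). Its signals were 9258, 9258, 8607, 9258 and 9258 units on arrays 6, 7, 8, 9 and 10. Albumin was the brightest named gene on every array but array 8, where Apoe was. Before quantile normalisation its signals were 13306, 8594, 8379, 9358 and 10592 units, highest on array 6. Quantile normalisation gives probe sets of the same rank the same value on each array, so the spread of the brightest genes after it is small by construction. The SD of the log2 signal of Alb was 0.047 after normalisation, 0 without array 8, and 0.27 in the values as deposited.

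Apoe, a ligand for lipoprotein uptake, followed at 8779 ± 399 units (SD, n = 5). Hp encodes haptoglobin, which binds free haemoglobin, and had 8024 ± 184 units. Apoc3, a regulator of triglyceride-rich lipoproteins, had 8015 ± 429 units and Serpina1, an inhibitor of neutrophil elastase, 7857 ± 343 units. The plasma carriers Gc (vitamin D), Ambp (the precursor of alpha-1-microglobulin and bikunin), Ahsg (fetuin-A), Hpx (haem) and Ttr (thyroxine and retinol-binding protein) had means of 7502 ± 513, 7297 ± 406, 6939 ± 329.8, 6792 ± 313 and 6452 ± 354 units. Their ranges over the arrays overlapped those of their neighbours in the order, so the rank of any one of them among the next is not fixed by 5 arrays. The remaining plasma proteins of the 20 were Kng2 (a kininogen, 6259 ± 409 units), Apoc1 (6051 ± 158 units), complement C3 (5821 ± 709.7 units), Vtn (vitronectin, 5661 ± 686 units) and Apoa2 (5365 ± 337 units). The spread of several of these rested on 1 array. The log2 SD of Gc fell from 0.10 to 0.041 and that of Hpx from 0.068 to 0.017 without array 8, that of Vtn from 0.17 to 0.11 without array 8, that of Ambp from 0.081 to 0.052 without array 7, and those of Ttr and Apoa2 from 0.078 and 0.089 to 0.049 and 0.055 without array 6.

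The 5 genes of the 20 outside the plasma lists were enzymes or, for Cox4i1, an enzyme subunit. Pon1, paraoxonase, is itself secreted into plasma but stood in the list of conjugating enzymes and in no plasma list. It had 5826, 5638, 5925, 6825 and 4618 units on arrays 6 to 10 (log2 SD 0.20, and 0.12 without array 10). Cyp2e1, the ethanol-oxidising cytochrome P450, had 6572, 5884, 6991, 6403 and 5485 units on arrays 6 to 10, a mean of 6267 ± 590.5 (SD, n = 5). Mgst1, a microsomal glutathione transferase, had 6030.3 ± 310.2 units (log2 SD 0.073, and 0.047 without array 8). Scd, the desaturase that makes monounsaturated fatty acids, had 6246, 4734, 4686, 5275 and 6572 units, high on arrays 6 and 10 and low on arrays 7 and 8. Cox4i1, a subunit of cytochrome oxidase, had 5353 ± 367 units (log2 SD 0.10, and 0.064 without array 7). The twentieth and the next gene, Cox4i1 and Cyp2d2, had mean log2 signals of 12.38 and 12.36.

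**Figure D1:**
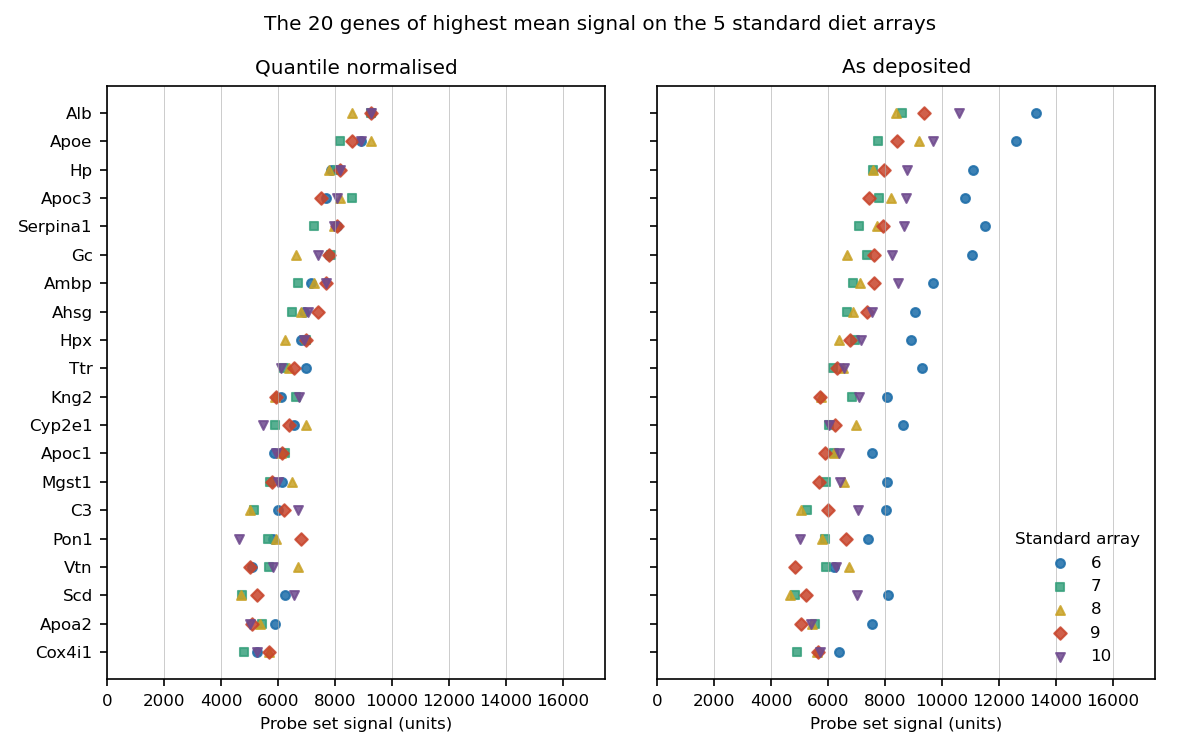
Signal in units (x axis, linear from 0) of the 20 brightest genes (rows, by mean) on the 5 standard diet arrays, 1 symbol per array, after quantile normalisation (left) and as deposited (right). The deposited signals of Alb spread from 8379 to 13306 units with array 6 highest, and after normalisation from 8607 to 9258 units.

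The 20 brightest genes held 11.7 ± 0.24% of the summed signal (SD, n = 5) and the 100 brightest 35.1 ± 0.38%. Secreted plasma proteins held 19.6 ± 0.58%, with 20.5% on array 7 as the highest and 18.9% on array 10 as the lowest value. Genes of the 32 functional lists, 874 in all, held 69.1 ± 0.67% of the signal, and the other 2199 genes 30.9%.

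Among the functional lists, 4 held over 5% of the signal each. Acute phase proteins and protease inhibitors (22 genes, led by Hp, Serpina1 and Kng2) held 5.87 ± 0.20% (SD, n = 5). Ribosomal proteins (40 genes, led by Rps29, Rpl3 and Rplp0) held 5.78 ± 0.29%. The enzymes of the urea cycle and amino acid metabolism (67 genes) held 5.67 ± 0.23%, led by Hpd, which degrades tyrosine, Ass1 of the urea cycle and Cdo1, which oxidises cysteine. Plasma carrier proteins (15 genes) also held 5.67 ± 0.20%. These 4 shares differed by about 1 SD or less, and their order is not resolved.

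Cytochromes P450 (36 genes) held 4.48 ± 0.45%, from 3.79% on array 10 to 4.88% on array 7. Oxidative phosphorylation and the citrate cycle (56 genes) held 4.48 ± 0.25% and conjugating enzymes (39 genes) 4.34 ± 0.33%. The list of conjugating enzymes also holds the esterases Pon1, at 0.50% of the signal, and Ces2e. The 9 apolipoproteins held 3.57 ± 0.11%. The 36 genes of fatty acid and triglyceride synthesis and handling held 3.43 ± 0.45%, with 3.93, 3.00, 2.93, 3.79 and 3.49% on arrays 6 to 10. The coagulation and fibrinolysis list (15 genes, led by Vtn, F2 and Fga) held 2.45 ± 0.18% and complement (13 genes, led by C3, Clu and C9) 1.95 ± 0.15%. The share of the coagulation and fibrinolysis list was highest on array 7, where 9 of 15 genes had their highest signal, against 15.5% of all genes.

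The 26 liver transcription factors and nuclear receptors held 0.39% of the signal, and their summed share differed by 1.03-fold between the highest and the lowest array. Hnf4a, a nuclear receptor that maintains the hepatocyte state, had 172, 258, 223, 266 and 189.6 units, so an even sum does not make each member even. The 17 genes of cholesterol synthesis and uptake held 0.72, 0.46, 0.37, 0.94 and 0.64% on arrays 6 to 10, a 2.57-fold range and the widest of all lists with more than 1 gene. The immediate early and acute stress genes (37) ranged 1.84-fold, the clock genes (9) 1.62-fold and fatty acid oxidation (35) 1.41-fold.

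**Figure D2:**
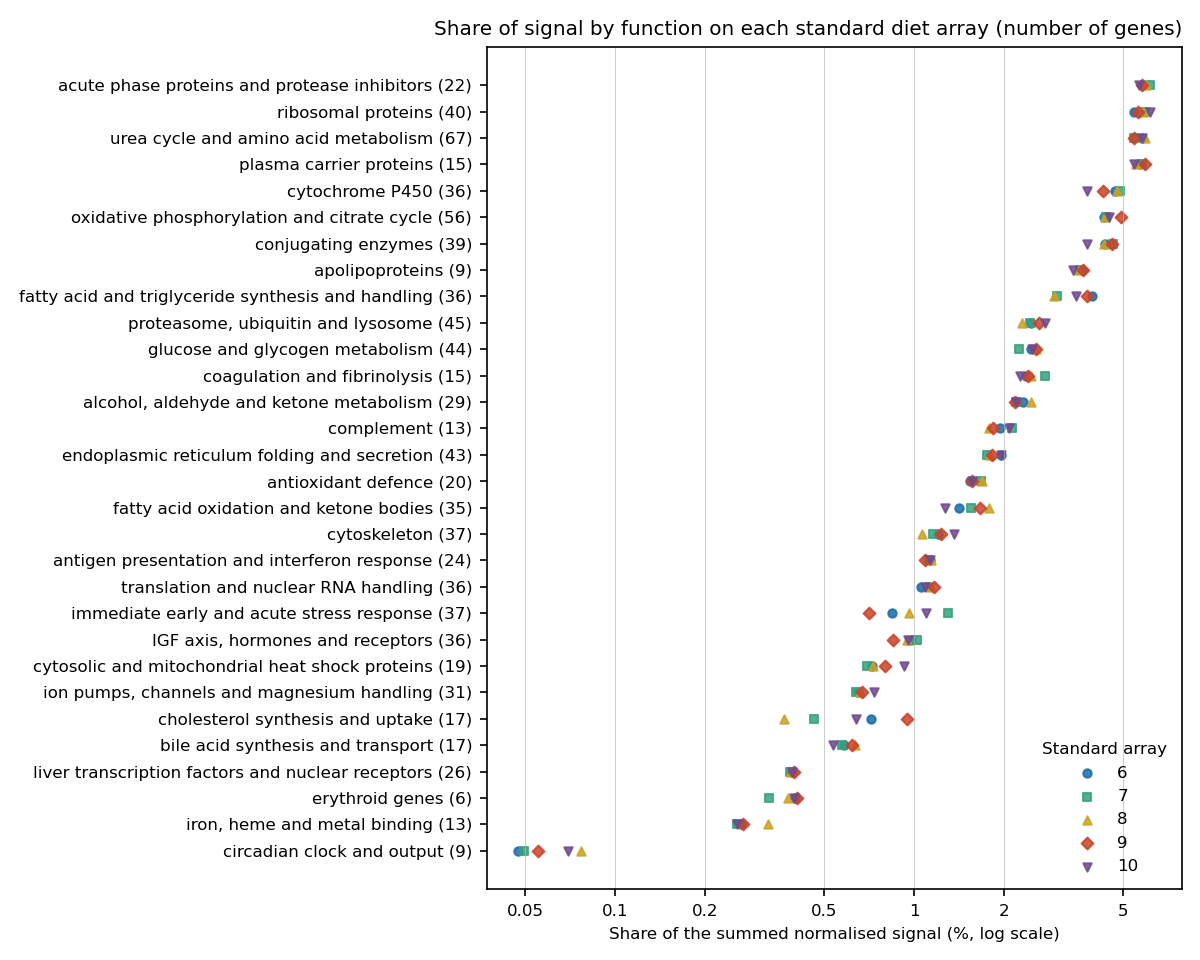
Share of the summed signal in percent (x axis, log scale) held by each functional list (rows, number of measured genes in brackets) on each of the 5 standard diet arrays. The cholesterol list spreads from 0.37% on array 8 to 0.94% on array 9, while the share of liver transcription factors stays near 0.39% on all 5 arrays.

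All 10 hepatocyte markers on the array were above the filter, against 64.9% of all genes, as were 8 of 9 Kupffer and macrophage markers (Csf1r was below), 5 of 6 endothelial (Vwf below), 8 of 9 stellate and fibroblast (Des below), 2 of 4 bile duct and 4 of 4 erythroid markers. With so few markers in a list, a share near that of all genes says little about which cells are present. The summed signal of the hepatocyte markers ran from 36939 units on array 8 to 41715 on array 6, and that of the Kupffer and macrophage markers from 1673 units on array 10 to 2079 on array 7. Clec4f, a lectin receptor of Kupffer cells, had 221, 322, 273, 327 and 249 units on arrays 6 to 10. The haemoglobin gene Hbb had 2641, 2188, 2437, 2624 and 2538 units, and shares sequence with other globin genes. Of the 6 erythroid genes 5 were lowest on array 7, against 23.2% of all genes. The stellate and fibroblast sum ran from 532 units on array 7 to 913 on array 6. Markers of other cells were divided. Cd3d of T cells, Prss1 of exocrine pancreas and Plin1 and Fabp4 of fat were at the floor on all 5 arrays, although 5 of 8 lymphocyte, 7 of 12 pancreas and 2 of 4 fat markers were above the filter. Cd4, which macrophages of the rat also carry, had 42.5, 33.5, 34.1, 28.1 and 28.5 units. Of 3 probe sets for Ins1, 1 had 175 ± 38.3 units (SD, n = 5; log2 SD 0.35, and 0.16 without array 7) and the others were below the filter, at mean log2 signals of 3.11 and 3.46. Of 3 sets for Lep, the brightest had a mean log2 signal of 8.45, another 4.79 and the last, below the filter, 3.79. The sets do not agree on whether these transcripts are present.

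Genes that mark the 2 ends of the liver lobule were all above the filter, 7 of 7 periportal and 6 of 6 perivenous. The perivenous list varied more between arrays, summing to 7481 units on array 7 and 10560.2 on array 6, a 1.41-fold range against 1.11-fold for the periportal list. Cyp2e1, its brightest member, had an SD of 0.14 by the set used. Other sets of Cyp2e1 had SDs of 0.35 and 0.51, both highest on array 9 and lowest on array 10. No sum was made from other probe sets. Glul, which makes glutamine in the last cells around the central vein, had 884, 646, 1548, 1266 and 1189 units. Its other sets were highest on arrays 10, 9 and 9 and lowest on arrays 6, 6 and 7, so the order of the arrays depends on the set. Cyp1a2, a perivenous P450, had 1919, 629, 950.3, 1799 and 1127 units, high on arrays 6 and 9. Oat, which degrades ornithine, had 750.1, 203, 81.5, 385 and 122 units, a 9.21-fold range, with array 6 highest and array 8 lowest. A second set of Oat had the same highest and lowest arrays but a smaller spread, with an SD of 0.52 against 1.28. Its log2 signals were 8.08, 7.11, 6.64, 7.24 and 7.32. Among periportal genes Pck1, the entry enzyme of glucose synthesis, had 723, 1443, 1725, 2785 and 572 units, highest on array 9 and lowest on array 10.

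Most genes varied little between the arrays. The SD of the log2 signal over the 5 arrays had a median of 0.32 over genes, which corresponds to a 1.25-fold difference, with quartiles of 0.23 and 0.47. An SD from 5 arrays is itself imprecise, and its chi-square 95% interval runs from 0.599 to 2.87 times its value. That interval assumes normal log2 signals, which does not hold where 1 array sets the SD. It also makes no allowance for genes picked for a large SD. The SD exceeded 1 in 128 of 3073 genes (4.17%), of which 116 were above the floor on every array. It fell with level, from a median of 0.54 in the dimmest 10% of genes to 0.22 in the brightest 10%. Of 1402 genes with a mean above 100 units, 35 had an SD above 1.

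**Figure D3:**
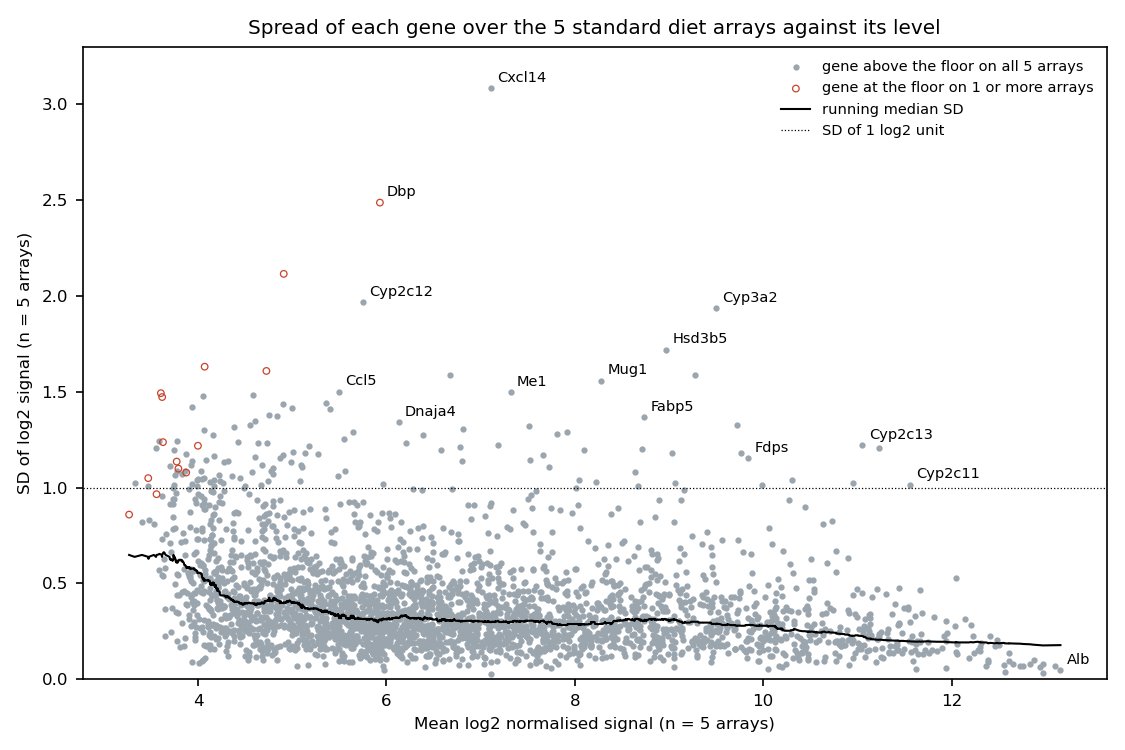
SD of the log2 signal over the 5 standard diet arrays (y axis) against the mean log2 signal (x axis), 1 point per gene, with the running median (line) and an SD of 1 (dotted line). Open circles are genes set to the floor on 1 or more arrays. Cxcl14 lies highest, at an SD of 3.08, and bright genes such as Cyp2c11 and Cyp2c13 stand above an SD of 1 where the brightest 10% of genes have a median of 0.22.

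The functional lists differed in how many of their genes passed an SD of 1. Cytochromes P450 had 9 of 36 genes with an SD above 1, cholesterol synthesis and uptake 4 of 17 and the immediate early and stress list 4 of 37, against 4.17% of all genes. No gene passed in 13 lists, many of them too short for this share to give more than 1 gene. The longest of them was oxidative phosphorylation and the citrate cycle (56 genes).

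The variable genes are described by the arrays that set them apart. Apart from the 20 most variable genes, the 3 brightest members of a list and its member of largest SD, the genes named in these groups were chosen after their values were seen.

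The first group of variable genes set array 9 apart. It included liver genes that textbooks describe as higher in adult male or in adult female rats. These lists were written after the values were seen, and the labels give no sex. Of 7 male-predominant genes 5 were lowest on array 9, where 20.4% of all genes were, and of 7 female-predominant genes 6 were highest there, against 18.2% of all genes. Members of the Cyp2c, Cyp3a, Cyp2a, Sult2a and urinary protein families are near-identical in sequence, and each probe set may read more than 1 of them.

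Cyp2c11, a steroid 16-alpha-hydroxylase and the main male P450 of rat liver, had 4018, 4223, 4160.0, 857 and 4141 units on arrays 6, 7, 8, 9 and 10. It was 4.69-fold lower on array 9 than on the next lowest array, while the other 4 arrays were alike. Its SD was 1.02 (95% interval 0.61 to 2.92) and, without array 9, 0.03, which lies below that interval. The other 2 probe sets of the gene had log2 signals of 10.30, 10.87, 10.28, 7.56 and 10.10 and of 7.01, 7.68, 6.83, 5.65 and 5.64, the first lowest on array 9 and the second about equally low on arrays 9 and 10.

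Cyp2c13, its male-predominant relative, had 3064, 3938, 3246, 487 and 2271 units, lowest on array 9 (SD 1.22, and 0.33 without that array). Cyp3a2, which hydroxylates testosterone, had 681, 1821, 1852, 73.5 and 1164 units. Its signal on array 9 was 9.26-fold below the next lowest array, and its SD of 1.93 (95% interval 1.16 to 5.56) fell to 0.68 without array 9. Hsd3b5, a hydroxysteroid dehydrogenase, had 381, 1046, 914, 69.8 and 1241 units (SD 1.72, and 0.76 without array 9). Cyp2a2 had 828, 1709, 1483, 462 and 1449 units, again lowest on array 9, with an SD of 0.79 that was 0.46 without it.

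Obp3, a urinary pheromone-binding protein of the lipocalin family, had 139, 1246, 1539, 263 and 1304 units and was low on both array 6 and array 9 (SD 1.59). Cyp3a18 had 99.9, 491, 481, 131 and 137 units and was high on arrays 7 and 8 alone. Csad, which makes taurine, and Hao2, a peroxisomal hydroxyacid oxidase, were outside both lists and were picked for their values. Csad had 161, 511, 519, 83.1 and 443 units and Hao2 244, 645, 616, 132 and 1022 units, both low on arrays 9 and 6.

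Cyp2c12, the female-predominant steroid sulphate hydroxylase, went the other way with 54.6, 16.6, 27.2, 545 and 33.8 units on arrays 6 to 10. Array 9 was 9.98-fold above the next array, and the SD of 1.97 (95% interval 1.18 to 5.65) fell to 0.71 without it. A second probe set of the gene gave log2 signals of 5.84, 4.23, 4.64, 9.43 and 4.24. The other 6 female-predominant genes were all lowest on array 10, against 18.5% of all genes, and most lay farther from their median on array 10 than on array 9. Cyp2c7, a retinoic acid hydroxylase, had 3852, 3184, 1791, 5545 and 652 units, with an SD of 1.20 that was 0.68 without array 10. Sult2a1, a hydroxysteroid sulphotransferase, had 2079, 1591, 1874, 2641 and 616 units (SD 0.81, and 0.31 without array 10), and Sult2a6 had 1671, 1317, 1902, 2529 and 496 units (SD 0.90, and 0.39 without array 10). Arrays 10 and 9 also had the highest and the lowest 3'/5' control ratios, and the part of this in these values was not tested.

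These genes varied among the arrays of the other diets too. On the log2 scale Cyp2c12 ran from 5.10 to 10.33 on the supplemented and from 4.78 to 8.93 on the deficient arrays. Cyp2c11 ran from 8.51 to 12.39 and from 10.75 to 11.72 in the same order, and Cyp2c13 from 5.48 to 11.85 and from 9.86 to 11.53.

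The promoters of Cyp2c11, Cyp2c13, Cyp2c12 and Obp3 are shown because these genes were among those low or high on array 9 and all hold a TATAAA motif shortly before the start of the gene. The 100 bases before the annotated start are printed 5′ to 3′ on the gene's strand from the RefSeq annotation of build GRCr8, with TATAAA in capitals.
Cyp2c11: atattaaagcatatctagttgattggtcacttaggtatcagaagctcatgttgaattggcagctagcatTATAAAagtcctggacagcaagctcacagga
Cyp2c13: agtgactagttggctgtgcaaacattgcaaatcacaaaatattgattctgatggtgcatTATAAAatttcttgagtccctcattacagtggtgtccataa
Cyp2c12: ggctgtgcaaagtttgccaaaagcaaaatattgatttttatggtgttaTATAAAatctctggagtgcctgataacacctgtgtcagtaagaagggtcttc
Obp3: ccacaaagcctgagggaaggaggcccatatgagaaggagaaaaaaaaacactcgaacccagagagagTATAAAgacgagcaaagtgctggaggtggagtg
Cyp2c11 lies at chr1:246175116-246175215 on the plus strand, Cyp2c13 at chr1:248787189-248787288 on the minus strand, Cyp2c12 at chr1:248677035-248677134 on the minus strand and Obp3 at chr5:79640676-79640775 on the minus strand. The motif begins 31, 41, 52 and 33 bases before the start in this order. In Cyp2c12 it thus lies outside the stretch between 45 and 10 bases before the start that is counted below. The genes were picked for holding the motif, and its frequency in the other genes of this group is not given. Searched on both strands of the 300-base window from 250 bases before to 50 after the start, TATAAA was present in 15 of 83 promoters of the 100 most variable genes with a sequence (18.1%), in 10.3% of the 2534 measured genes with a sequence and in 15.3% of all 27457 genes of the promoter table.

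A second group held enzymes of sterol and fatty acid synthesis, most of which were high on array 6, 9 or 10 and low on arrays 7 and 8. In the cholesterol list 12 of 17 genes were highest on array 9, against 18.2% of all genes, and 12 of 17 were lowest on array 8, against 16.4%. Fdps, which makes farnesyl diphosphate, had 1501, 545, 362, 2711 and 816 units on arrays 6 to 10 with an SD of 1.16 (95% interval 0.69 to 3.32). A second set of Fdps was also highest on array 9, and another, at log2 signals of 8.19, 8.48, 7.63, 8.89 and 9.02, was highest on array 10. Sqle, the squalene epoxidase, had 229, 78.2, 48.0, 388 and 199 units (SD 1.22) and Idi1, the isopentenyl diphosphate isomerase, 119.6, 83.0, 41.8, 415 and 93.5 units (SD 1.21, and 0.65 without array 9). Acat2, which makes acetoacetyl-CoA, had 445, 127, 113, 424 and 471 units, low on arrays 7 and 8 and level on the others.

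Enzymes of fatty acid synthesis differed in which arrays were high. Me1, the malic enzyme that supplies NADPH, had 305, 104, 42.0, 624 and 125 units, highest on array 9. Gpam, which starts glycerolipid synthesis, had 86.7, 19.7, 13.3, 88.7 and 12.1 units, high on arrays 6 and 9 and as low on array 10 as on array 8 (SD 1.44), while a second set above the filter gave log2 signals of 6.36, 4.75, 3.58, 5.46 and 4.63, highest on array 6 and lowest on array 8. Fabp5, a fatty acid binding protein, had 952, 232, 118, 488 and 1110.3 units and was high on arrays 6 and 10 (SD 1.37). Acly, which makes cytosolic acetyl-CoA, had 5730.5, 2856, 3214, 3852 and 6647 units and Fasn, the fatty acid synthase, 3088, 1064, 848, 1785 and 2807 units, both highest on arrays 6 and 10 by these probe sets. A second set of Fasn gave log2 signals of 9.74, 8.36, 7.61, 9.43 and 8.13, high on arrays 6 and 9 instead. A second set of Acly was also highest on array 10, and a dimmer one, at 5.26, 2.62, 2.33, 5.64 and 4.60, was highest on array 9, so which arrays are high depends on the probe set for both genes. Pnpla3, a lipid droplet protein outside the lists and named after its values were seen, had 1998, 482, 272, 711 and 2294 units with arrays 6 and 10 again highest. Me1 had an SD of 1.50 on these arrays and of 0.33 and 0.48 on the supplemented and deficient arrays.

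Genes of fatty acid oxidation, used in fasting, were highest on array 8 in 12 of 35 cases, against 18.3% of all genes, and lowest on array 10 in 12 of 35, against 18.5%. Decr1, a dienoyl-CoA reductase, had 677, 821, 1501, 784 and 737 units, with an SD of 0.46 that was 0.12 without array 8. Ech1, an isomerase of the same pathway, had 323, 397, 775, 483 and 354 units (SD 0.50, and 0.25 without array 8). Cpt1a, which admits fatty acids to mitochondria, was highest on array 9 instead, with 484, 413, 709, 1479.9 and 265 units (SD 0.93, and 0.59 without array 9). Array 9 thus had the highest signals of Cpt1a, of Pck1 and of most cholesterol synthesis genes.

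Another group held genes that were high on array 10. Of 19 cytosolic and mitochondrial heat shock proteins 9 were highest there, against 27.3% of all genes. A further 6 of the 19 were lowest there, against 18.5% of all genes. Hspb1, a small heat shock protein, had 121, 148, 218, 83.7 and 661 units (SD 1.14, and 0.58 without array 10). Dnajb1, a co-chaperone of the heat shock response, had 208, 135, 244, 149.6 and 626 units (SD 0.88, and 0.40 without array 10). A second set of Dnajb1 was also highest on array 10 but differed less, at log2 signals of 7.38, 7.13, 7.22, 7.43 and 7.82 (SD 0.27). Cryab had 28.2, 39.0, 51.7, 33.7 and 142 units (SD 0.92, and 0.37 without array 10) and Hsph1 249, 108, 173, 222 and 462 units. Dnaja4, a co-chaperone outside the list and named after its values were seen, had 44.4, 35.2, 55.3, 54.5 and 358 units, 6.47-fold above the next array on array 10 (SD 1.34, and 0.31 without it). The abundant chaperones varied less, with 2504, 2370.1, 2785, 2666 and 3246 units for Hsp90ab1 (SD 0.17, and 0.10 without array 10) and 1462, 1422, 1570.0, 1477 and 1654 units for Hspd1.

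Of 4 probe sets for Hspb1, 3 were highest on array 10 and 1 was not, at log2 signals of 7.23, 6.23, 6.53, 6.64 and 6.74. Array 10 also had the lowest signal of Mug1, a murinoglobulin of the alpha-2-macroglobulin family with near-identical relatives, at 354, 727, 341, 659 and 49.8 units (SD 1.56, and 0.58 without array 10). Atp5pb, a subunit of ATP synthase, had 705, 766, 721, 927 and 171 units and was lowest on array 10 as well (SD 0.99, and 0.18 without it). It was named after its values were seen. The 3'/5' control ratios of array 10 were 6.29 and 6.20, against 1.71 to 3.27 on the other arrays, and their part in the high and low signals of this array was not tested.

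Immediate early and acute stress genes, many of which are induced within minutes of a stimulus, held 0.84, 1.30, 0.96, 0.71 and 1.10% of the signal on arrays 6 to 10. Of the 37 genes 11 were highest on array 7, against 15.5% of all genes, and 13 were lowest on array 9, against 20.4%. Another 11 were highest on array 10, which is near the background of 27.3%. Atf3, a stress-induced transcription factor, had 65.8, 244, 63.0, 48.8 and 362 units on arrays 6 to 10 with an SD of 1.31 (95% interval 0.78 to 3.76). Egr1, a zinc finger factor, had 839, 1570.0, 849.8, 234 and 1902 units (SD 1.18, and 0.61 without array 9). The other sets of Egr1 were highest on array 7 and lowest on array 9, with SDs of 0.87, 1.09 and 0.23. Gdf15, a secreted stress signal outside the list that was named after its values were seen, had 28.2, 129, 29.2, 22.0 and 136 units, with arrays 7 and 10 about equally high. Dusp1, a phosphatase of MAP kinases, had 256, 1162, 646, 386 and 570.2 units and Klf10 161, 702, 424, 127 and 388 units, both highest on array 7. Sgk1, a kinase induced by glucocorticoids, had 37.2, 161, 45.3, 53.6 and 31.5 units and was high on array 7 alone (SD 0.93, and 0.33 without it).

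Of the 9 circadian clock genes 4 are described. Dbp, a transcription factor driven by the clock, was at the floor of 3.93 units on array 7 and had 35.0, 292, 115 and 183 units on arrays 6, 8, 9 and 10. A second, dimmer probe set of Dbp gave log2 signals of 3.63, 3.89, 6.00, 4.68 and 5.36, also highest on array 8 but lowest on array 6. The SD of the brighter set, 2.49 (1.31 without array 7), is a lower estimate, since the value at the floor can be lower still. Bmal1, which drives the opposite phase of the clock, had 33.5, 56.7, 9.46, 18.5 and 20.8 units, highest on array 7, where the brighter Dbp set was lowest, and lowest on array 8, where both were highest. Nr1d1, a repressor of Bmal1, had log2 signals of 6.83, 6.57, 7.26, 7.07 and 7.72 and was lowest on array 7 and highest on array 10. A second set of Nr1d1 was lowest on array 6 and also highest on array 10. The second set of Bmal1 was highest on array 7 too, at log2 signals of 5.72, 6.02, 1.97, 5.05 and 1.97, with arrays 8 and 10 at the floor. Per2 had 27.0, 33.2, 38.6, 9.47 and 51.0 units, lowest on array 9 (SD 0.93, and 0.39 without it). The hour of necropsy is not given in the labels.

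**Figure D4:**
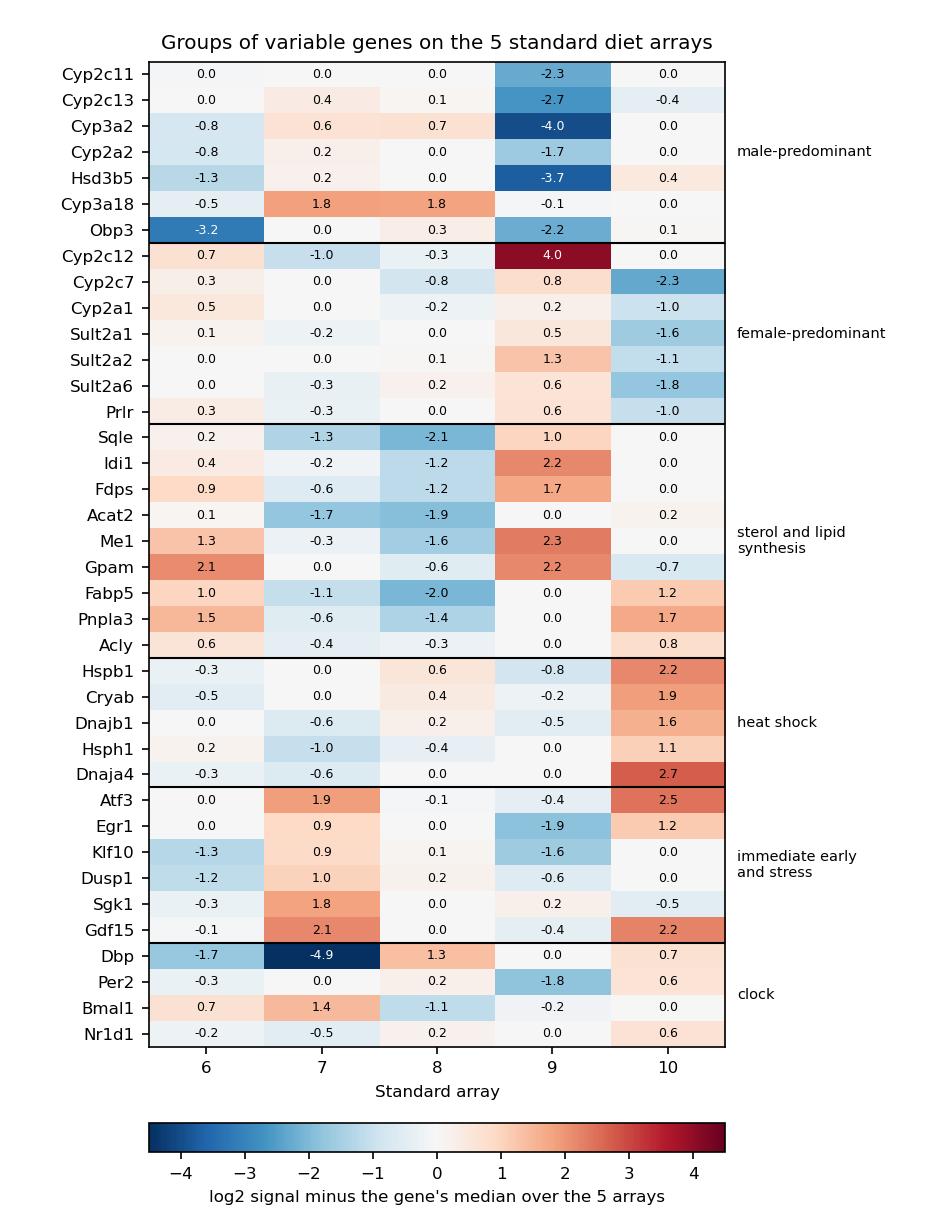
Difference between the log2 signal on each standard diet array (columns) and the gene's median over the 5 arrays, in log2 units (colour and number), for genes of the groups described. Array 9 is low for Cyp3a2 and Hsd3b5 and high for Cyp2c12, arrays 7 and 8 are low for Sqle and Acat2, array 10 is high for Dnaja4 and Hspb1, and arrays 7 and 10 are high for Atf3 and Gdf15.

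The gene with the largest SD belonged to none of these groups. Cxcl14, which encodes a chemokine, had 735, 441, 39.8, 5.79 and 676 units on arrays 6, 7, 8, 9 and 10. It was high on arrays 6, 7 and 10 and low on arrays 8 and 9, and its SD was 3.08 (95% interval 1.85 to 8.86), or 1.99 without array 9. A second probe set gave log2 signals of 8.22, 7.79, 4.91, 4.02 and 7.53, in nearly the same order. Kcnj15, a potassium channel, had 124, 89.8, 175, 17.5 and 329.9 units and was low on array 9 (SD 1.59, and 0.80 without it). Ccl5, a chemokine of T and natural killer cells, had 7.31, 89.9, 85.5, 62.3 and 53.5 units, 7.32-fold below the next array on array 6 (SD 1.50, and 0.36 without it). Coro1a, a leukocyte actin-binding protein, had 4.35, 41.5, 44.3, 19.5 and 51.5 units, also lowest on array 6 (near the floor of 3.93 units, an 11.8-fold range, and an SD of 0.63 without it). The summed lymphocyte markers were highest on array 6, at 198 units against 132 to 146 on the others, and 3 of 8 of them, Cd3d, Cd8a and Cd2, were below the filter.

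The remaining genes of the 20 most variable were dim. Serpina7, the thyroxine-binding globulin, had 21.6, 134, 80.6, 11.0 and 45.8 units and Acsm2, a medium-chain acyl-CoA synthetase, 17.3, 109.9, 85.7, 64.0 and 12.8 units. Slc2a1, a glucose transporter, had 7.38, 71.0, 55.8, 15.5 and 41.9 units and was lowest on array 6. Arhgap25 had 51.3, 25.3, 4.87, 38.7 and 35.2 units, with an SD of 1.35 that was 0.42 without array 8. Dlgap4 had 5.24, 25.7, 5.99, 29.7 and 52.1 units. Galnt1, Zfp354a and Vav2 had SDs of 1.42, 1.41 and 1.38 and no mean above 50 units. The twentieth gene, Arhgap25, and the next gene had SDs of 1.35 and 1.34.

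No single array set all the variable genes apart. Among the 100 most variable, the array farthest from the gene's median was array 9 in 30, array 10 in 24, array 6 in 20, array 8 in 17 and array 7 in 9. Over all 3059 genes above the floor on every array these shares were 18.7, 24.4, 21.6, 16.5 and 18.7% in the same order. In 169 of these genes (5.52%), Cyp2c11, Cyp2c13, Mug1, Ccl5, Dnaja4, Decr1 and Atp5pb among them, 1 array lay so far out that its gap to the next exceeded 0.71 of the whole range.

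The most even genes were of many kinds. Tmem183a, which encodes a membrane protein, had 137, 135, 139, 141 and 140.5 units on arrays 6 to 10 and the smallest SD, 0.025, among genes at or above the median level. Elob, a subunit of elongin, had 1048, 1103, 1035, 1019 and 1105 units (SD 0.054) and Mpc1, a subunit of the mitochondrial pyruvate carrier, 3077, 3298, 3045, 3116 and 3281 units (SD 0.054). Fbp1, the fructose bisphosphatase of glucose synthesis, had 3938, 3868, 4018, 4141 and 3726 units (SD 0.057). Impa1, an inositol phosphatase, had 205, 217, 210.2, 219 and 226 units. Adipor2, Acp5, Igfals, Ctsb and Dpp4 had SDs of 0.062 to 0.067, and Hp, Apoc1, Alb, Serpina1 and Apoe complete the 15. These SDs are of the brightest probe set of each gene, and dimmer sets above the filter could be less even. They had SDs of 0.40 and 0.26 for Adipor2, 0.39 and 0.37 for Igfals, and 0.58 for Dpp4. A dim set of Alb had 0.38, whereas the second set of Apoe had 0.053. Without 1 array the SD of Tmem183a was 0.016 (array 7), of Adipor2 0.035 (array 10), of Ctsb 0.043 (array 10), of Dpp4 0.038 (array 7), of Serpina1 0.011 (array 7) and of Apoe 0.043 (array 7). In the values as deposited Elob had an SD of 0.083, Mpc1 of 0.053 and Tmem183a of 0.055, whereas Hp, Alb, Serpina1 and Apoe had 0.23 to 0.27.

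Spread repeated on arrays that had not entered the ranking. Of the 100 most variable genes 54 were in the top 10% by SD on the supplemented arrays and 61 on the deficient arrays, which by definition hold 10% of all genes. Of the 20 most variable 12 were in the top 10% on the supplemented and 12 on the deficient arrays, and 6 were in both. Of the 100 least variable genes 77 and 87 had an SD below the median of all genes on the supplemented and deficient arrays, against 50%. These 100 were drawn from genes at or above the median level, and SD fell with level. The 50% of all genes is therefore not a like background, and no count adjusted for level was made for them. When the most variable genes were ranked instead by SD minus the running median SD of genes of like level, 51 and 63 of the 100 were in the top 10%. The values of Cxcl14, the most variable gene, ran from 4.08 to 9.36 on the supplemented and from 4.73 to 6.05 on the deficient arrays on the log2 scale. Arhgap25 had SDs of 0.27 and 0.18 there. Of the 15 least variable genes 13 had an SD below the median of all genes on the supplemented and 13 on the deficient arrays. Above the supplemented median of 0.35 were Acp5 (0.58) and Dpp4 (0.40). Above the deficient median of 0.31 were Mpc1 (0.39) and Adipor2 (0.38). These 15 were also drawn from genes at or above the median level.

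The 100 brightest genes had fewer CpG pairs around their starts in the median than all measured genes, while the 100 least variable had about as many. No test was run on these counts. RefSeq promoter windows of build GRCr8 were matched by symbol for 2534 of 3073 measured genes, 81 of the 100 brightest, 83 of the 100 most variable and 87 of the 100 least variable. The median number of CpG pairs in the 300-base window was 6 in the 100 brightest, 17 in the most variable, 21 in the least variable and 20 in all measured genes. It was 7.5 over the whole promoter table of 27457 genes. Plasma protein genes had a median of 4 (58 genes with a sequence), cytochromes P450 2 (30 genes) and ribosomal proteins 22 (36 genes). The median GC content was 52.0% in the 100 brightest and 60.7% in all measured genes.

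The 2 kinds are shown with 3 bright plasma protein genes, Alb, Hpx and Ahsg, and 3 of the most even genes, Elob, Mpc1 and Tmem183a. The 100 bases before the annotated start are printed as above, with every CG in capitals.
Alb: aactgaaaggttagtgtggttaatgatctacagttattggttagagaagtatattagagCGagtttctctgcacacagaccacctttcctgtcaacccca
Hpx: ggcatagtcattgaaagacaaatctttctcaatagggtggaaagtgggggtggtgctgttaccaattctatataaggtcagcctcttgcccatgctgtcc
Ahsg: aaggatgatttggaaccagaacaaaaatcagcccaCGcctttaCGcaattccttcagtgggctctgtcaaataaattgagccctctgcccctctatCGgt
Elob: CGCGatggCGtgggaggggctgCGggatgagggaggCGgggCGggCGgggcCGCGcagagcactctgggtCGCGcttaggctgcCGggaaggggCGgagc
Mpc1: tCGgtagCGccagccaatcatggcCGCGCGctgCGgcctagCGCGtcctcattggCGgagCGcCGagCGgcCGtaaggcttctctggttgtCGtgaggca
Tmem183a: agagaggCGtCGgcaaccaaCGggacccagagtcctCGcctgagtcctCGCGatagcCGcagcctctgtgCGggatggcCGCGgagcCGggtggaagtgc
These stretches lie at chr14:17906980-17907079 on the minus strand, chr1:169352156-169352255 on the minus strand, chr11:91632584-91632683 on the minus strand, chr10:13358219-13358318 on the minus strand, chr1:54996959-54997058 on the minus strand and chr13:48372349-48372448 on the minus strand. They hold 1, 0 and 3 CG pairs in the plasma protein genes and 13, 14 and 11 in the even genes. In the full window the counts were 2, 5 and 5 against 33, 33 and 30. The even genes shown lie above the median of 21 of the 100 least variable genes and are not typical of them.

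TATAAA on either strand was found in 20 of 81 promoters of the brightest genes (24.7%) and in 4 of 87 of the least variable (4.60%), against 10.3% of all measured genes. Counted only on the gene's strand between 45 and 10 bases before the start, it was found in 10 of 81 of the brightest (12.3%), 6 of 83 of the most variable (7.23%), 2 of 87 of the least variable (2.30%) and 3.31% of all measured genes. It lay there in none of the 17 of the 20 brightest genes with a sequence, and on either strand of the full window in 1 of them. CCAAT on either strand, which cannot overlap TATAAA by more than 1 letter, was found in 48.1, 39.8 and 48.3% of the bright, variable and even genes and in 40.7% of all measured genes. A match is a run of letters and not a binding site.

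**Figure D5:**
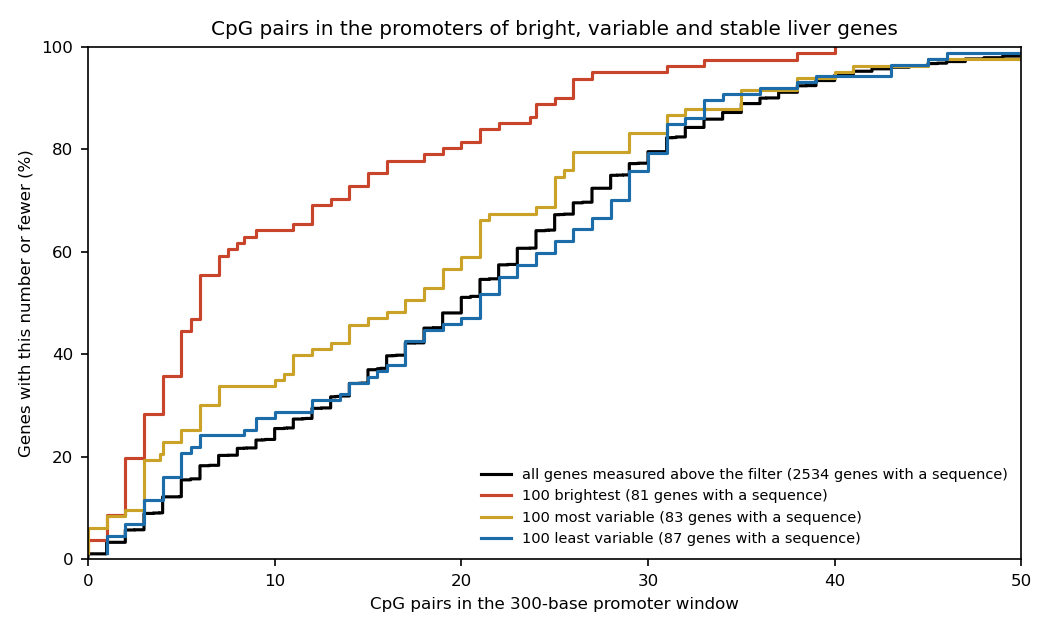
Cumulative share of genes in percent (y axis) against the number of CpG pairs in the 300-base promoter window (x axis) for all measured genes and the 100 brightest, most variable and least variable genes with a RefSeq sequence. The line of the brightest genes lies far to the left, with a median of 6 pairs against 20 in all measured genes.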

How the data were processed

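Liver RNA of 14 rat samples was measured on Affymetrix arrays with 8799 probe sets. The deposited values are probe set intensities on a linear scale, and each standard array has a mean of 150.0 units once the highest and lowest 2% are left out, which is how its global scaling by the authors was read from the values. Which software made them is not given in the sources used here. Intensities were turned to log2 and quantile-normalised over the 14 arrays without the 59 control probe sets. A floor was set at 3.93 units, the 20th percentile of all arrays together. Probe sets named 1 gene in 7006 of 8740 cases, several in 308 and none in 1426. Symbols were updated by Entrez ID through RefSeq (GRCr8), and 6985 are current. Genes whose brightest probe set by mean exceeded the pooled 40th percentile were kept.

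Levels are means ± SD over the 5 standard arrays. An SD has a chi-square 95% interval, which assumes normal log2 signals and makes no allowance for picking genes by their SD. No tests were run. Named genes were the 20 brightest, the 20 most variable above the floor, the 15 least variable at or above the median level, the 3 brightest members and the member of largest SD of each functional list, and the 3 brightest markers of each cell type. Other names are said to be chosen from their values. The members and lists were chosen with earlier results of these data known. The calculations were tested on simulated data. The arrays carry no depth, and their number limits the precision. Protein features were not analysed here. Python 3.11.15 was used with numpy 2.4.6, pandas 2.3.3, scipy 1.17.1 and matplotlib 3.10.9. Other scalings, floors, filters, probe set rules and leaving out each array were tried.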

Additional observations from a re-analysis of the deposited data

Results flagged for a closer look

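On these 5 arrays 1 array stood apart from the other 4 for the results below, in that its gap to the nearest other array, divided by the whole range, exceeded Dixon's 95% value of 0.71. Chance flags about 1 in 20 groups of 5, and 169 of 3059 genes above the floor on every array (5.52%) passed it, a share close to that. No explanation was tested.

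Among measures of the arrays, the highest deposited signal was 16556 on array 6 against 8839 to 11076 on the others (gap over range 0.71). The share of oxidative phosphorylation and citrate cycle genes was 4.90% on array 9 against 4.30 to 4.47% (0.720). The share of antigen presentation and interferon response genes was 1.08% on array 9 against 1.12 to 1.14% (0.715). The share of iron, heme and metal binding genes was 0.33% on array 8 against 0.25 to 0.27% (0.832).

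Among genes, low log2 signals stood apart for Alb on array 8 at 13.07 against 13.18 on all the others (gap over range 1), Serpina1 on array 7 at 12.82 against 12.96 to 12.98 (0.871) and Hpx on array 8 at 12.61 against 12.74 to 12.77 (0.787). For these 3 bright genes the normalised value depends on rank alone, since quantile normalisation gives the same rank the same value on each array. As deposited the same array was lowest for each gene, while array 6 was highest for all 3. Alb had 13306, 8594, 8379, 9358 and 10592 units on arrays 6 to 10 as deposited. In the same order Serpina1 had 11501, 7088, 7736, 7923 and 8683 units and Hpx 8910.4, 6956, 6400.2, 6784 and 7164 units. Cyp2c11 was at 9.74 on array 9 against 11.97 to 12.04 (0.969) and Cyp2c13 at 8.93 there against 11.15 to 11.94 (0.737). Atp5pb was at 7.42 on array 10 against 9.46 to 9.86 (0.838). Mug1 was at 5.64 on array 10 against 8.42 to 9.51 (0.718), and Ccl5 at 2.87 on array 6 against 5.74 to 6.49 (0.793). High signals stood apart for Decr1 on array 8 at 10.55 against 9.40 to 9.68 (0.758) and Dnaja4 on array 10 at 8.48 against 5.14 to 5.79 (0.806).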

How the results depend on the processing

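The share of the 20 brightest genes, 11.7%, was 12.4% in the values as deposited, 12.4% with arrays centred on their median, 12.3% with the 5 standard arrays normalised alone, 11.5% with a floor at the pooled 40th percentile and 13.5% with the mean of a gene's probe sets. The plasma protein share, 19.6%, was 20.2% as deposited, 20.2% median-centred, 20.2% with the 5 arrays alone and 20.6% with the mean of probe sets. Genes with an SD above 1 numbered 128, 62 with the floor at the 40th percentile and 204 without a filter on dim probe sets. The median SD, 0.32, was 0.34 median-centred, 0.24 with the higher floor, 0.34 without a filter and 0.27 from the median absolute deviation. Leaving out each array in turn gave 11.7 to 11.8% for the 20 brightest, 19.3 to 19.7% for plasma proteins, 116 to 146 genes with an SD above 1, a median SD of 0.30 to 0.33, and 43 to 54 and 49 to 59 of the 100 most variable genes in the top 10% by SD on the supplemented and deficient arrays. The 20 brightest genes were the same 20 under the other scalings, floors and no filter, and 14 of them were kept with the mean of probe sets. Of 1404 recomputed SDs of named genes 96 changed by more than their own error, and of 1296 levels 76 did. For a level this error was the gene's SD over the 5 arrays. Leaving out 1 of 5 arrays cannot shift a mean by more than that SD, so these settings could not flag a level. Each of them flagged 0 of 108 levels, and the 76 came from the other settings. The count of 1296 includes them, so it does not show how far levels depend on single arrays. The causes of the changes were not tested. No paired analysis was possible because no groups were compared. Dim genes are limited by signal near background.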
